A study of Mus musculus with 6 samples.

Results

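The 10 genes described here encode the receptors through which brain macrophages read colony-stimulating factors (Csf1r, Csf2ra, Csf2rb), TGF-beta (Tgfbr1, Tgfbr2), IL-10 (Il10ra, Il10rb) and IL-6 (Il6ra, Il6st), together with the TGF-beta ligand gene Tgfb1. They were chosen by symbol as genes of the niche signals that maintain these cells, and all 10 were found among the 35598 gene identifiers of each table. All 10 passed the filter on low counts. The cells were macrophages of the brain borders (CNS-associated macrophages, which lie along vessels, in the meninges and in the choroid plexus), sorted from brains of male C57BL/6 mice as CD45+, CD11b+ and CD206+ cells without CD3. The aged group was 18 months old and the young group 2 months old, with 3 RNA-seq libraries each. The strain, sex, tissue and gate were the same in both groups, and no transgene or treatment is given in the labels. The question was how far the transcripts of these receptors differ between the ages.

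CSF1 receptor signalling keeps tissue macrophages alive, and its ligands in the brain are CSF1 and IL-34. The GM-CSF receptor pairs an alpha chain with a common beta chain that also serves IL-3 and IL-5. TGF-beta is secreted in a latent form, and once released it brings the type II receptor and then the type I receptor together, which phosphorylates Smad proteins. It is needed for the mature state of microglia, the macrophages of the brain tissue itself. IL-10 restrains inflammatory gene expression in macrophages through a ligand-specific chain and a chain shared with related cytokines, and IL-6 acts through a specific chain and a shared signal transducer.

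The libraries held 30596555, 32902649 and 30044347 counts in the aged group and 33306093, 26605077 and 28302369 counts in the young group. Nothing in the labels ties a library to an animal, so every p-value below reflects the variation among these libraries alone and part of it may be technical. Of the genes of the gate, Mrc1 (CD206) was at 1611 ± 639 CPM (counts scaled to depth by TMM) in aged and 2795 ± 135 CPM in young libraries. Ptprc (CD45) was at 385 ± 180 and 317 ± 14.8 CPM (SD, n = 3 each). The gate excluded CD3, but Cd3d and Cd3g reached 59.5 and 66.5 CPM in aged replicate 1, their highest library, and Cd3e reached 3.93 CPM there. The summed level of 12 microglia markers was 11084 to 18432 CPM in aged and 5833 to 8393 CPM in young libraries. That of 12 border macrophage markers was 8691 to 18337 CPM in aged and 26296 to 30023 CPM in young libraries. In aged replicate 2 the microglia sum exceeded the border macrophage sum (18432 against 8691 CPM). The sums were close in aged replicate 3 (14653 against 14912 CPM), and the microglia sum was clearly the lower one in the other libraries. Aged replicate 3 stood apart, with 6.65 CPM over 10 neutrophil markers and 85.8 CPM over 6 erythroid markers, against at least 7982 and 9075 CPM in every other library. The neutrophil sum exceeded the border macrophage sum in aged replicate 1 (21607 against 18337 CPM) and young replicate 1 (37768 against 27565 CPM). Over 6 choroid plexus epithelium markers, aged replicate 3 had 8018 CPM and young replicate 3 had 11807 CPM, against 564 to 1360 CPM in the other libraries. In bulk libraries of sorted cells, fewer cells of a type and less RNA per cell cannot be told apart.

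None of the 10 genes was called between the ages, by edgeR's quasi-likelihood test with Benjamini-Hochberg adjustment over 10661 genes (adjusted p from 0.936 to 0.997). An adjusted p under 0.05 was reached by 0.00938% of all genes tested, which was 1 gene, the chemokine gene Cxcl13. At an unadjusted p under 0.05 there were 0 of the 10 genes, against 5.67% of all genes tested. The DESeq2 Wald test and limma-voom also called 0 of the 10. Of all genes, DESeq2 called 1.64% of the 9634 to which it gave an adjusted p, and limma-voom 0% of 10661. Fitted log2 fold changes were above 0 for 5 of the genes and below 0 for 5, with a median of 0.01, and the median over all genes tested was -0.02. Every aged library lay below every young one for 2 of the 10, Csf2rb and Il10ra, and above for 0. Of all genes tested, 7.19% lay below and 7.54% above in this way, 14.7% in either direction. The 2 genes are given for their values and not as a property of the group.

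**Figure D1:**
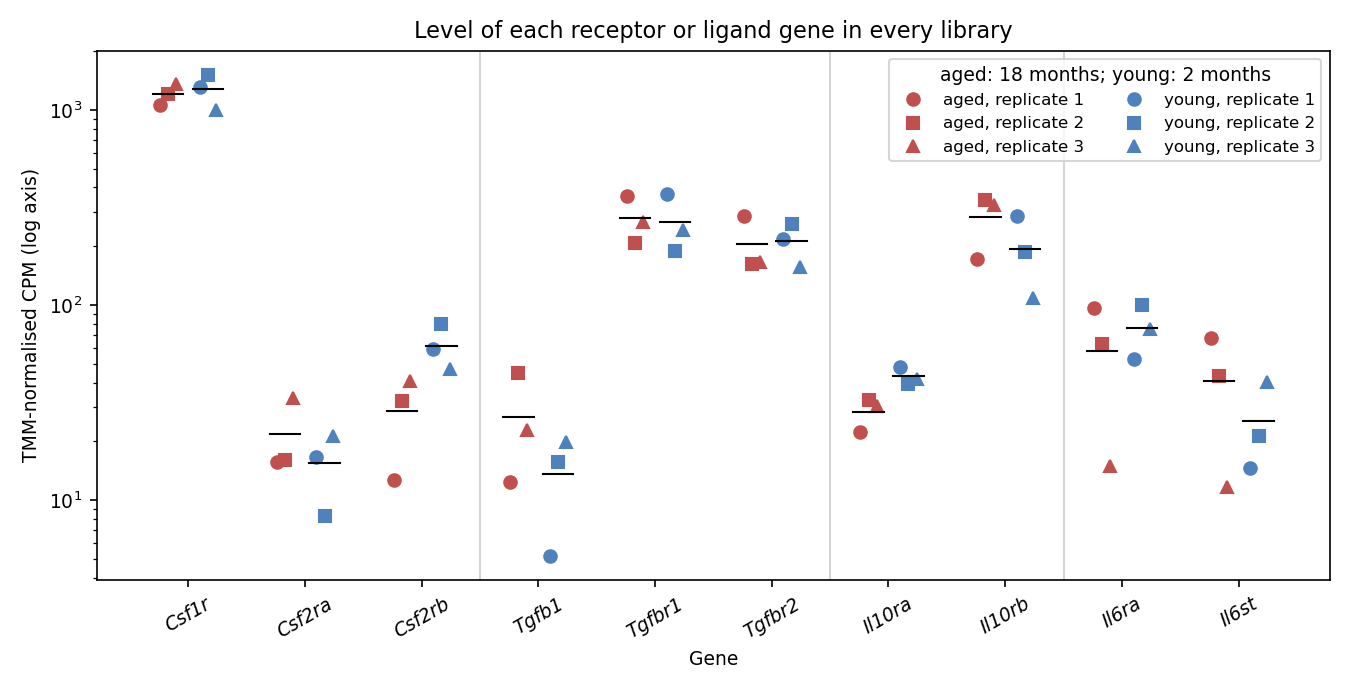
Each point is 1 library and gives the level of a gene in TMM-normalised CPM on a log axis, aged libraries in red left of young libraries in blue, with a line at each group mean. Csf1r lies between 993 and 1512 CPM in all libraries, while Il6ra and Il6st are lowest in aged replicate 3.

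Csf1r, the receptor of CSF1 and IL-34, was the most abundant of the genes and the steadiest. Its level was 1063, 1211 and 1363 CPM in the aged libraries and 1314, 1512 and 993 CPM in the young ones. The groups overlapped, and the highest library was 1.52-fold above the lowest, the narrowest range among the 10 genes. The log2 fold change, aged minus young, was -0.07 (SE 0.29). Its 95% interval, expressed as aged over young, ran from 0.611-fold to 1.49-fold. In mm10, Csf1r (ENSMUSG00000024621.16) lies on chromosome 18 from 61100598 to 61132149 and overlaps Hmgxb3 on the opposite strand, a gene with a mean of 86.8 counts against 37557 for Csf1r. Among the 2188 other genes averaging 50 CPM or more, those whose log2 CPM followed Csf1r most closely over the 6 libraries were Golga7 (Pearson r 0.984), Atrx (0.936) and Ltc4s (0.931). These coefficients share the libraries' scaling and were the highest among many, and are given as a description.

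Csf2ra, the ligand-binding chain of the GM-CSF receptor (chromosome 19, 61223957 to 61228429), was low. It had 15.7, 16.1 and 33.5 CPM in the aged libraries and 16.6, 8.26 and 21.4 CPM in the young ones. These groups overlapped, with a log2 fold change of 0.50 (SE 0.96). On TPM, which also divides by the effective transcript length, aged libraries had 6.39, 9.95 and 9.07 TPM and young ones 4.42, 2.11 and 6.27 TPM, without overlap. The effective length that the authors' tables give for Csf2ra varied 1.6-fold between libraries, and its part in that difference was not tested.

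Csf2rb, the common beta chain (chromosome 15, 78325752 to 78353847), had the largest fitted difference of the 10 genes. It was at 12.7, 32.3 and 40.7 CPM in the aged libraries and 59.2, 79.8 and 46.8 CPM in the young ones. All 3 aged values were below all 3 young values, and aged replicate 1 was the lowest. The log2 fold change was -1.12 (SE 0.64), with an interval from 0.171-fold to 1.24-fold and an adjusted p of 0.936 by edgeR's quasi-likelihood test. The summed border macrophage markers were also lower in each aged library. Of these 12 markers, 6 lay below the young libraries in every aged one, among them Pf4 at a log2 fold change of -1.41 (SE 0.40), and 1, Cd38, lay above. Cd163, Folr2 and Cbr2 were at -0.02, -0.06 and 0.07 (SE 0.39, 0.32 and 0.27). The part of these markers in the Csf2rb difference was not tested.

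Mice carry a near copy, Csf2rb2, which encodes the beta chain specific to IL-3 and lies beside Csf2rb on chromosome 15. The coding sequences of both genes in GENCODE M21 (2688 and 2634 bases) were 95.2% identical over 2628 aligned bases. The stretches below, on the coding strand and numbered from the first base of the start codon, show how far reads of 100 bases can tell them apart. The first 2 lines are the 60-base window with the most differences, bases 304 to 363 of Csf2rb and 307 to 366 of Csf2rb2, with the 13 differing bases in capitals. The third is the start (bases 2083 to 2142 of Csf2rb) of the longest stretch without a difference, which ran for 242 bases.
Csf2rb: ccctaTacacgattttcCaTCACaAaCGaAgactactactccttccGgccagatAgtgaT
Csf2rb2: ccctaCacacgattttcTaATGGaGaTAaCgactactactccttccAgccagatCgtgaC
Csf2rb and Csf2rb2: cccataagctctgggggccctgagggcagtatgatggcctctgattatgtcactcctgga

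Of the 4665 windows of 100 bases in the Csf2rb transcript, 7.2% occurred unchanged in a Csf2rb2 transcript. A read from such a window cannot be assigned to either gene by its sequence. How far this moved the counts of the pair was not measured. Csf2rb2 had 1.74, 15.3 and 0 CPM in the aged libraries and 20.8, 41.2 and 3.83 CPM in the young ones, and the groups overlapped. The sum of both genes was 14.4, 47.6 and 40.7 CPM in aged and 80.0, 121 and 50.7 CPM in young libraries. The sums did not overlap either, and with the counts of both genes added the log2 fold change was -1.29 (SE 0.62, edgeR adjusted p = 0.892). On TPM, young replicate 3 stood out at 22.0 TPM of Csf2rb although its CPM was the lowest young value. The effective length of Csf2rb was 863 bases in that library and 4475 to 4592 bases in the others.

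The TGF-beta receptor genes differed between the ages by less than the spread between libraries. Tgfbr1, the type I receptor kinase (chromosome 4, 47353222 to 47414931), had 362, 208 and 266 CPM in the aged libraries and 369, 189 and 242 CPM in the young ones. The groups covered nearly the same range, with a log2 fold change of 0.06 (SE 0.37). Tgfbr2, the type II receptor that binds the ligand (chromosome 9, 116084293 to 116175360), had 285, 162 and 166 CPM in aged and 219, 262 and 157 CPM in young libraries, at -0.05 (SE 0.37). Here too the groups overlapped, and the highest aged library was above all young ones. The intervals of both receptors were 0.590-fold to 1.85-fold and 0.542-fold to 1.72-fold.

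Tgfb1 encodes the ligand (chromosome 7, 25687002 to 25705077). It was at 12.4, 44.6 and 22.8 CPM in the aged libraries and 5.19, 15.6 and 19.8 CPM in the young ones. The aged values spread more widely than the gap between the groups, and aged replicate 1 lay below young replicates 2 and 3. Its log2 fold change was 0.98 (SE 0.99), with the widest interval of the TGF-beta genes, 0.420-fold to 9.20-fold, and without aged replicate 2 it was 0.38. Over the 10 genes its range was the widest, the highest library being 8.61-fold above the lowest.

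The IL-10 receptor genes had fitted differences of opposite sign. Il10ra, the ligand-specific chain (chromosome 9, 45253837 to 45269149), had 22.3, 32.5 and 30.2 CPM in the aged libraries and 48.4, 39.3 and 41.8 CPM in the young ones. Every aged value was below every young value, but the log2 fold change of -0.61 (SE 0.61) was no larger than its error. On TPM the groups overlapped, with 2.77, 6.28 and 3.78 TPM in aged and 5.72, 4.91 and 5.10 TPM in young libraries. Il10rb, the chain shared with other cytokines of the family (chromosome 16, 91406164 to 91425834), had 172, 345 and 326 CPM in aged and 285, 187 and 108 CPM in young libraries. Its groups overlapped, since aged replicate 1 lay below young replicates 1 and 2, and the log2 fold change was 0.54 (SE 0.44). Il10rb shares a stretch with Gm21970 on the same strand, whose mean was 71.2 counts against 7404 for Il10rb.

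The IL-6 receptor genes varied more within the aged group than between the ages. Il6ra, the ligand-specific chain (chromosome 3, 89864059 to 89913196), had 96.7, 62.8 and 14.9 CPM in the aged libraries and 52.9, 100.1 and 75.7 CPM in the young ones. Il6st, the shared signal transducer (chromosome 13, 112464070 to 112510086), had 68.0, 43.3 and 11.6 CPM in aged and 14.6, 21.4 and 40.5 CPM in young libraries. On CPM both genes were lowest in aged replicate 3, the library with hardly any neutrophil or erythroid transcripts, and whether these are related was not tested. The log2 fold change was -0.39 (SE 0.66) for Il6ra and 0.68 (SE 0.82) for Il6st. Without aged replicate 3 these values were 0.07 and 1.13, and neither gene was called.

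**Figure D2:**
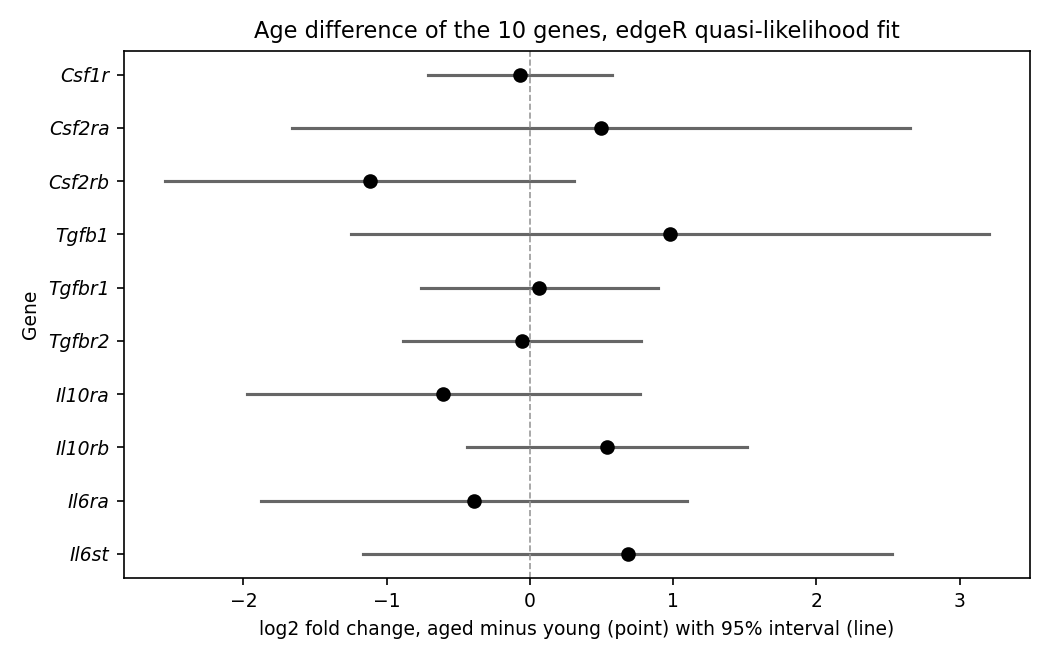
Points give the log2 fold change, aged minus young, of each gene in edgeR's quasi-likelihood fit, and lines its 95% interval. All 10 intervals include 0, and they are narrowest for Csf1r, Tgfbr1 and Tgfbr2 and widest for the low genes Tgfb1 and Csf2ra.

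Levels can be compared between genes on TPM. Averaged over the 6 libraries, the order was Csf1r (158 TPM), Il10rb (70.1 TPM), Tgfbr1 (22.5 TPM) and Tgfbr2 (11.8 TPM), and each of the first 3 was above the next in all 6 libraries. Below them, Csf2rb, Csf2ra, Il6ra, Tgfb1 and Il10ra averaged 7.29 to 4.76 TPM. Tgfbr2 was above Csf2rb in 5 libraries, and from Csf2rb down to Il10ra each gene exceeded the next in only 2 to 4 of the 6, so these 5 could not be ranked. Il6st was the lowest at 2.15 TPM and lay below Il10ra in 5 libraries.

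The chains of 1 receptor were also compared with each other within a library, a ratio that does not depend on the scaling of libraries and that was added after the levels had been seen. The ratio of Il10rb to Il10ra on TPM was 16.5, 22.3 and 22.6 in the aged libraries and 12.7, 9.96 and 5.43 in the young ones. Every aged ratio was above every young one, and the log2 difference was 1.20. The ratio of Il6st to Il6ra was 0.474, 0.645 and 0.709 in aged and 0.135, 0.115 and 0.301 in young libraries, again without overlap. That of Csf2rb to Csf2ra was 0.178, 0.457 and 0.410 in aged and 1.16, 3.43 and 3.52 in young libraries, and every aged ratio was lower. The value of young replicate 3 rests on its short effective length of Csf2rb, and without that library the log2 difference was -2.63, against -2.90 with it. The ratio of Tgfbr1 to Tgfbr2 was 1.87, 1.96 and 2.45 in aged and 2.34, 1.03 and 2.29 in young libraries, and its groups overlapped. In a two-sided exact permutation test the 3 ratios without overlap had p = 0.1 (n = 3 each), the smallest p this design allows, and 0.133 adjusted over the 4 ratios.

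The same 3 ratios did not overlap when they were formed on CPM. Their log2 differences were 1.20 for Il10rb to Il10ra, 1.19 for Il6st to Il6ra and -1.75 for Csf2rb to Csf2ra. On TPM these were 1.20, 1.85 and -2.90. The effective length varied 1.5-fold between libraries for Il6st and 1.4-fold for Il6ra, and its part was not tested. For Csf2rb to Csf2ra the nearest CPM ratios were 2.01 in aged replicate 2 and 2.19 in young replicate 3. Over all 45 pairs of the 10 genes, 20% of the CPM ratios did not overlap, against 15.5% of the 19409565 pairs among genes averaging 10 CPM or more.

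**Figure D3:**
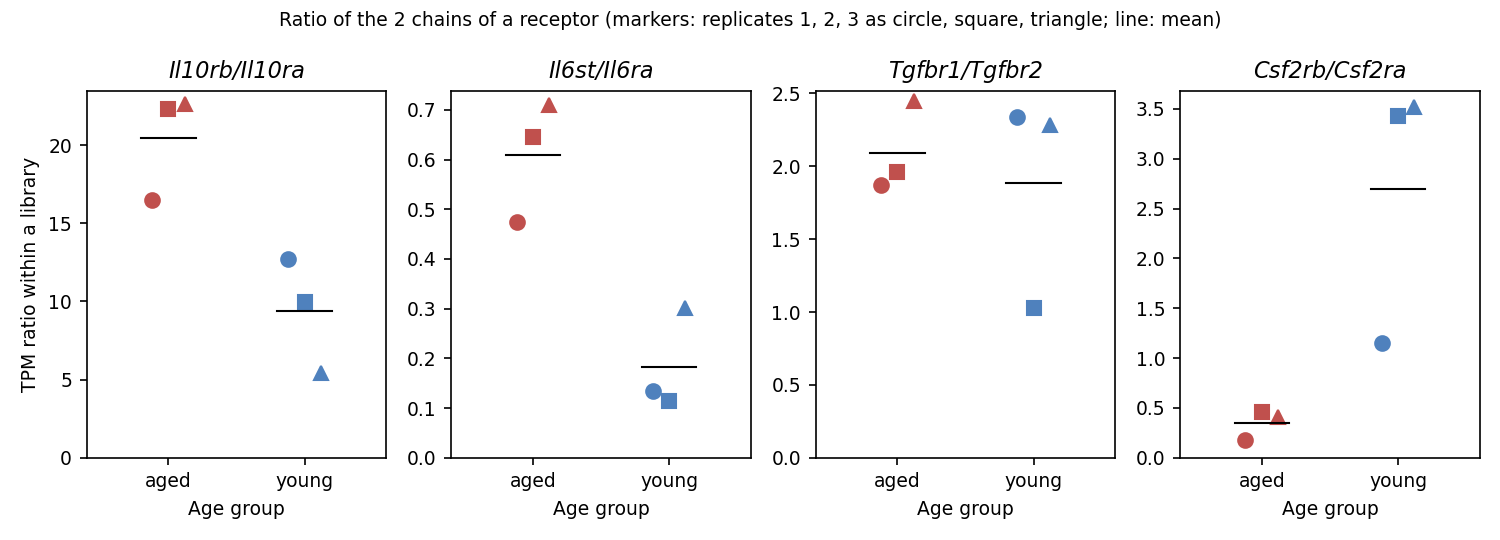
Each panel gives, on a linear axis from 0, the TPM ratio between the chains of 1 receptor in each library, aged in red left of young in blue, with a line at the mean. The ratios of Il10rb to Il10ra and of Il6st to Il6ra are higher in each aged library, that of Csf2rb to Csf2ra is lower, and that of Tgfbr1 to Tgfbr2 overlaps.

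Apart from Tgfb1, transcripts of the ligands of these receptors were at 0, near 0 or uneven between libraries. Il34 had 0 counts in every library, which allows at most 0.112 CPM (3 counts per library, counting error only). Csf2, which encodes GM-CSF, had 1 count in aged replicate 1 and 0 in the other libraries. Csf1 was at 6.50, 0.155 and 0.141 CPM in the aged libraries and 4.29, 0.112 and 0.179 CPM in the young ones. Il10 was at 15.0, 0.337 and 0 CPM in aged and 0, 0 and 21.9 CPM in young libraries, and Il6 at 10.5, 24.6 and 0.0354 CPM in aged and 25.0, 0.0372 and 15.6 CPM in young libraries. Each of these 3 cytokine genes was detected in both groups but in an uneven way. Csf1 had most of its counts in replicate 1 of both groups, and Il10 in aged replicate 1 and young replicate 3. Il6 was near 0 in aged replicate 3 and young replicate 2 only. On TPM, Il6 had 5.81, 19.5 and 0.023 TPM in aged and 11.95, 0.021 and 8.64 TPM in young libraries. Of Tgfb1, Csf1, Csf2, Il34, Il10 and Il6, only Tgfb1 had at least 5 CPM in every library. The choice to name these ligand genes was made with their values in view.

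Of the 10 genes listed as colony-stimulating factors and their other receptor chains, 3 could be tested, and 0 were called in either direction. Csf3r, the receptor of G-CSF, which is abundant in neutrophils, had 25.1, 45.9 and 19.2 CPM in the aged libraries and 5.96, 1.38 and 1.43 CPM in the young ones. Every aged value was above every young value, with a log2 fold change of 3.36 (SE 1.20, edgeR adjusted p = 0.744). The 10 neutrophil markers summed to 21607, 7982 and 6.65 CPM in the aged libraries and 37768, 12060 and 14489 CPM in the young ones. The 12 microglia markers summed to 11084, 18432 and 14653 CPM in aged and 7482, 5833 and 8393 CPM in young libraries. The part of either set in this result was not tested. Il3ra, the IL-3 receptor alpha chain, was very low at 3.86, 1.55 and 5.37 CPM in aged and 0.288, 0.149 and 0 CPM in young libraries. Its groups did not overlap, and its adjusted p was 0.862 in the same edgeR test; this gene too was named with its values in view.

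Genes that carry the signal of CSF receptors were called in 0 of 20 tested cases, and 2 of the 20 had an unadjusted p under 0.05, both higher in aged libraries, where 3.63% of all genes tested were higher at that limit. The median log2 fold change was 0.46. Ptpn6, which encodes a phosphatase that dampens receptor signals, had 79.4, 200.1 and 86.9 CPM in the aged libraries and 48.0, 47.2 and 65.4 CPM in the young ones, without overlap (log2 fold change 1.19, SE 0.49, edgeR adjusted p = 0.839). Lyn, a Src family kinase, had 317, 395 and 205 CPM in aged and 215, 157 and 96.4 CPM in young libraries, with an overlap between aged replicate 3 and young replicate 1 (0.97, SE 0.40). Inpp5d, a lipid phosphatase, was at -0.54 (SE 0.46). Ptpn6 overlaps the antisense gene Gm20531, which had a mean of 16.5 counts against 2844 for Ptpn6.

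Storage and release of latent TGF-beta was represented by 9 tested genes of 16, with 0 called and a median log2 fold change of -0.09. Nrros, which anchors latent TGF-beta on myeloid cells, had 71.1, 149 and 88.9 CPM in the aged libraries and 127, 109 and 96.9 CPM in the young ones. The groups overlapped, at -0.11 (SE 0.41), and the integrin chain Itgb1 lay at -0.09 (SE 0.38). Among 16 tested ligands, receptors and Smads outside the 10 genes, 0 were called and the median was 0.17. The most abundant were Fkbp1a, which binds the type I receptor, at 0.73 (SE 0.44), and Bmpr2, a BMP receptor, at -0.56 (SE 0.74).

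Of 11 tested feedback and target genes of TGF-beta, 0 were called, and the median was 0.28. Pmepa1, a feedback inhibitor of Smad signalling, had 111, 162 and 253 CPM in the aged libraries and 103, 85.6 and 109.7 CPM in the young ones. All aged values were above all young values by a small margin, with a log2 fold change of 0.82 (SE 0.41, edgeR adjusted p = 0.913). Tgfbi, a secreted matrix protein gene induced by TGF-beta, had 375, 220 and 171 CPM in aged and 309, 357 and 337 CPM in young libraries. Its groups overlapped through aged replicate 1, at -0.39 (SE 0.36). Smurf2, a ubiquitin ligase that targets the receptors and Smads, was lower in each aged library at 5.46, 5.21 and 0.212 CPM, against 18.8, 25.0 and 36.3 CPM in young ones (-2.88, SE 1.37, edgeR adjusted p = 0.892), and was named with its values in view. Klf10 of the same list was also lower without overlap, at -1.17 (SE 0.63). In this way 2 of the 11 genes lay below and 1 above, against 7.19% and 7.54% of all genes tested.

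The IL-10 and IL-6 family lists, which also hold signal transducers and target genes, added 20 tested genes, of which 0 were called. Outside the 10 genes, Il10 was the only ligand or receptor gene of the IL-10 family that could be tested. The medians were 0.84 over 10 genes of the IL-10 family list and -0.15 over 10 of the IL-6 family list. Bcl3 (0.83) and Hmox1, at the middle of the IL-10 family list, were each highest in aged replicate 2. Bcl3 had 0.625, 16.8 and 0.460 CPM in the aged libraries. Jak1, the kinase on which both receptors rely, had 153, 96.2 and 60.8 CPM in the aged libraries and 163, 63.2 and 105.9 CPM in the young ones, which overlapped throughout (-0.10, SE 0.50). Hmox1, a haem-degrading enzyme gene induced by IL-10, rested on aged replicate 2, with 5.87, 147 and 31.7 CPM in aged and 33.6, 32.1 and 37.1 CPM in young libraries (0.85, SE 0.95). Lifr, which pairs with the Il6st product to bind leukaemia inhibitory factor, had 197, 149 and 62.5 CPM in aged and 181, 160 and 157 CPM in young libraries. On CPM aged replicate 3 was the lowest library for Lifr, as for Il6ra and Il6st (-0.29, SE 0.44). Adam10, a protease that sheds membrane receptors, was at -0.61 (SE 0.43).

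**Figure D4:**
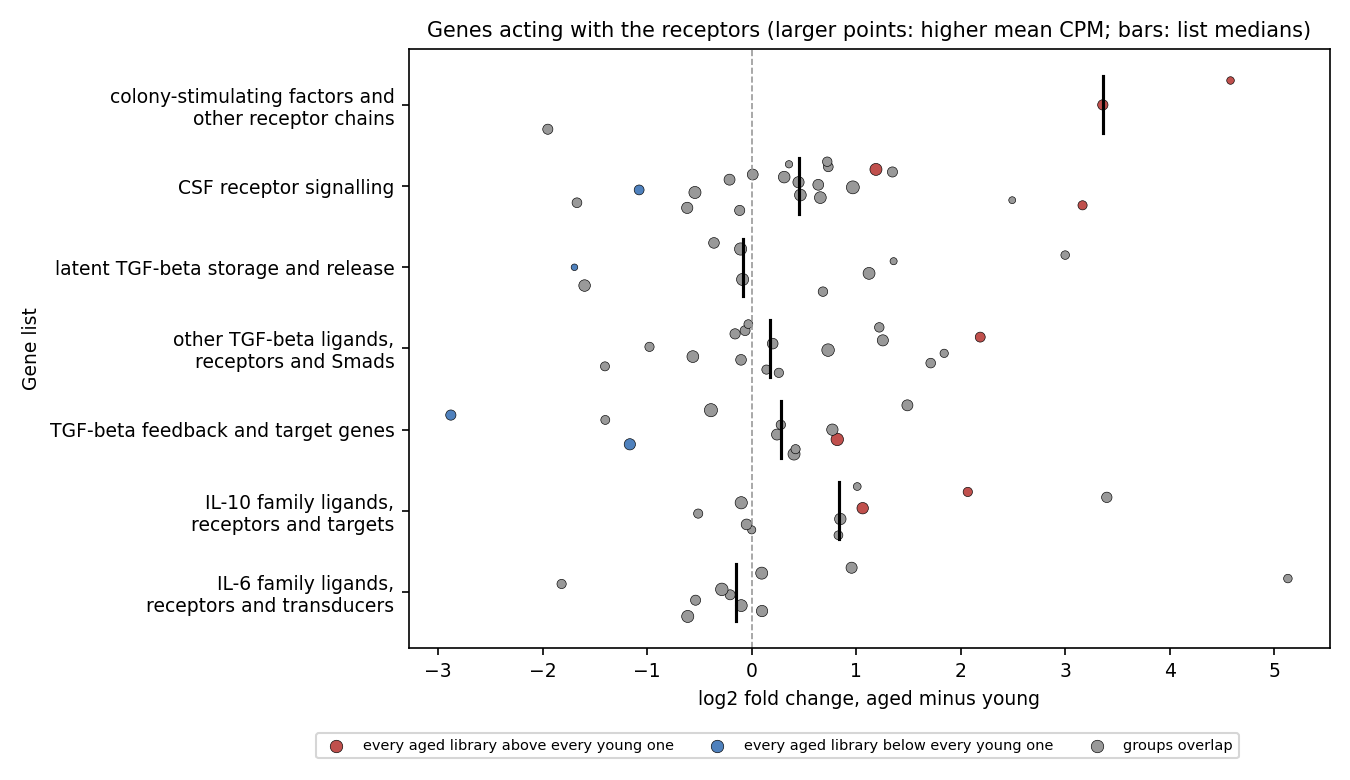
Each point is 1 tested gene of a list of genes acting with the receptors, placed by its log2 fold change, aged minus young, with larger points for a higher mean CPM and bars at the list medians. Red and blue mark genes whose aged libraries all lie above or all below the young ones, and no gene shown was called.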

How the data were processed

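Per the labels' protocols, each library was made from sub-nanogram total RNA with a template-switching kit and PCR and sequenced from 1 end, and the kit gives no strand information. Per the submitters' processing notes, the build was mm10 and the tools were DRAGEN, fastp, Picard, FastQC and bcl2fastq 2.20; which tool did what, and with which annotation, is not given in the sources used here. The deposited tables hold, per the file headers, the authors' estimated count of each gene, its TPM (which accounts for depth and transcript length) and its effective length. Estimated counts were rounded to whole numbers, and 35513 of 35598 identifiers were matched to GENCODE M21 with the version ignored.

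In R 4.3.3 with edgeR 4.0.16, genes were filtered with filterByExpr, scaled by TMM and compared (aged minus young, all 6 libraries, no covariate) by a robust quasi-likelihood F test, two-sided, adjusted over 10661 genes. SE was the size of the log2 fold change divided by the square root of F. The fit was tested on simulated data, where most of the changed genes were not called. Alternatives were DESeq2 1.42.0, limma 3.58.1, limma-trend on log2(TPM + 1) or log2(TPM + 0.1) for genes with a mean of at least 1 TPM, other filters, a replicate block and leaving out each library. Genes named besides the 10 were, per list, the 2 most abundant, called ones, and up to 2 per direction without overlap at a mean of at least 50 CPM; other mentions came after values were seen. The members and lists were chosen with earlier results of these data known. The floor of 3 counts covers counting error only, since PCR copies are not independent molecules.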

Additional observations from a re-analysis of the deposited data

How the results depend on the processing

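None of the 10 genes was called under any of the 17 alternatives (lowest adjusted p 0.51, for Il10rb at a mean of at least 50 CPM, where 5 of the 10 were tested). Csf2rb, Il10ra, Csf2ra, Tgfb1, Il10rb and Il6st kept the sign of their log2 fold change in all of those that tested them, Csf2rb between -1.75 and -0.75. Csf1r, Tgfbr1, Tgfbr2 and Il6ra changed sign in 4, 2, 5 and 1. On TPM the median of all genes was 0.22 with a pseudocount of 1 and 0.27 with 0.1, against -0.02 on counts, so the values of 0.19 for Csf1r on both TPM scales lay below that median. Over all genes, 1 was called higher and 0 lower. DESeq2's Wald test gave 117 and 41, edgeR with no filter 51 and 11, a filter on genes averaging 50 CPM or more 19 and 6, and limma-trend on log2(TPM + 1) 2 and 0. In limma-voom the counts were 0 and 0, with 913 genes at an unadjusted p under 0.05, and library quality weights left them at 0 and 0 (930 genes); the cause was not tested. Without single libraries they were 0 to 2 and 0 to 1, losing Cxcl13 without aged replicates 2 or 3. A replicate block kept 1 and 0. Over all genes tested, same-numbered libraries did not deviate together (r from -0.026 to 0.022), so the numbers were not taken as pairs. Some transcripts did follow the number. The choroid plexus sum was highest in replicate 3 of both groups (8018 and 11807 CPM) and the neutrophil sum in replicate 1 (21607 and 37768 CPM). Whether same-numbered libraries were handled together was not tested. The ratio of Tgfbr1 to Tgfbr2 turned from 0.24 to -0.15 without young replicate 2. The spread between libraries limits what could be shown at every level: the interval of Csf1r reached 1.49-fold and that of Tgfb1 9.20-fold.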
